A study of Rattus norvegicus with 30 samples.

Results

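The 30 libraries of hippocampal RNA came from rats of 2 cohorts, XII and XIII, and the comparison of these cohorts is described here. A library was assigned to its cohort by the Roman numeral that its title carries after the word Grp. There were 11 libraries of XII and 19 of XIII among the 30, with 1 rat per library. What the numeral stands for is not explained in the sources used here; it is taken as a cohort of rats that went through the experiment together.

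All rats were adult male wild type Sprague Dawley rats. Rats of the shock-resistant (SR) and shock-sensitive (SS) groups self-administered methamphetamine (METH) for 21 days and then for 8 days under foot-shocks; SR rats kept pressing for the drug and SS rats reduced their pressing. The control (CT) rats received saline for their presses and no shocks, and each yoked rat (YSR or YSS) received saline together with the shocks given to its METH-taking partner of the SR or SS group. Every animal had an intravenous catheter, and the CT rats carried it too. The cohorts were spread unevenly over the groups. CT held 1 rat of XII and 6 of XIII, SR held 4 and 3, SS held 2 and 4, YSR held 3 and 2, and YSS held 1 and 4. SR, SS and YSR therefore hold at least 2 rats of each cohort, and within CT and YSS a cohort rests on 1 rat.

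The tissue field of the labels names the dorsal striatum, whereas their protocol and the study's methods name the hippocampus. The gene tables hold identifiers and no gene names, so that the defining markers of either region could not be read, and 0 of 32552 identifiers were matched to a symbol. Genes are for this reason described by identifier, chromosome, length, structure and level, at most 2 per direction in each comparison. In bulk tissue, fewer cells of a type and less RNA per cell cannot be told apart.

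A long self-administration experiment is usually run on successive cohorts of rats, each trained, shocked and dissected together. The cohort becomes part of a comparison between groups whenever the groups take unequal shares of the cohorts. Transcripts of the mitochondrial genome, which encodes subunits of the respiratory chain and the RNAs of the mitochondrial ribosome, and of the sex chromosomes can be followed by chromosome without gene names, and they are given after the genes themselves.

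With the 5 groups in the model, 80 of 16768 genes tested (0.477%) differed between the cohorts at an adjusted p-value under 0.05 in edgeR's quasi-likelihood test. Of these, 59 were higher and 21 lower in XII. At an unadjusted p-value under 0.05 there were 2647 genes (15.8%), 1369 higher and 1278 lower in XII. The differences were small. The 59 higher genes had a median log2 change of 0.20 (range 0.11 to 0.54), or 1.15-fold, and the 21 lower genes had a median of -0.26 (range -0.55 to -0.14), or 1.19-fold. None of the 80 reached 1.7-fold, and for none of them did the values of all XII libraries lie apart from those of all XIII libraries. In the same fit, 31 genes (0.185%) differed between the 5 groups at an adjusted p-value under 0.05 and 1137 at an unadjusted one, and no gene was among both the 31 and the 80. The adjusted p-value of the last gene inside the threshold was 0.0498 and that of the first gene outside it 0.0506.

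The number of genes past the threshold depended on single libraries. It was 17 without SS XII-L03 and 248 without YSR XIII-R08, and 23 of the 30 libraries moved it by more than 1.5 times when left out. DESeq2 called 321 genes, which included all 80. The 80 genes are therefore a description of where the difference was clearest, and the values that follow rest more on the sizes of the changes than on the count.

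The gene with the smallest p-value among those higher in XII was ENSRNOG00000000814, on chr20:40769586-40773349 on the plus strand, with 4 exon blocks that sum to 833 bases. Its level in CPM (counts per 1000000 counts of the library, after TMM scaling) had its lowest value at 53.2, its median at 69.0 and its highest value at 83.3 in the 11 rats of XII. In the 19 rats of XIII the lowest was 43.8, the median 54.5 and the highest 66.2. The cohorts overlapped between 53.2 and 66.2 CPM over all groups.

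Within the groups, the levels of ENSRNOG00000000814 did not overlap between the cohorts. The 4 named genes were chosen by the fit over these same libraries, so their separation within groups is a description and no test. Over all genes tested, the cohorts did not overlap, in either direction, for 11.3% in SR, 23.1% in SS and 18.9% in YSR. The SR rats of XII were at 61.0, 61.6, 64.9 and 69.6 CPM and those of XIII at 49.8, 52.4 and 60.8 CPM. The SS rats of XII were at 60.6 and 71.7 CPM and those of XIII at 46.1, 43.8, 58.6 and 51.6 CPM. The YSR rats of XII were at 69.0, 53.2 and 70.4 CPM and those of XIII at 51.5 and 51.0 CPM. In all 3 groups every XII rat was above every XIII rat, although the closest pair in SR was separated by little. The single XII rats of CT (73.5 CPM) and YSS (83.3 CPM) were also above the XIII rats of their groups, whose highest values were 66.2 and 65.1 CPM. The fitted log2 change was 0.35 ± 0.06 (SE), or 1.27-fold (edgeR adjusted p = 0.00618), and it was 0.24 in SR, 0.40 in SS and 0.32 in YSR.

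ENSRNOG00000007900, on chr4:56981283-57004792 on the plus strand with 8 exon blocks summing to 1983 bases, was the second. Its lowest, median and highest levels were 57.1, 63.9 and 65.8 CPM in the 11 rats of XII and 50.1, 55.1 and 61.1 CPM in the 19 of XIII. This gene separated the cohorts in the METH groups and not in YSR. The SR rats of XII were at 61.4, 64.6, 62.8 and 65.3 CPM and those of XIII at 52.4, 53.1 and 52.7 CPM. The SS rats of XII were at 65.8 and 64.2 CPM and those of XIII at 56.0, 56.1, 55.1 and 55.8 CPM. In YSR the XII rats were at 60.5, 63.9 and 57.1 CPM and the XIII rats at 61.1 and 57.3 CPM. The XII and XIII values of YSR were thus interleaved, while in SR and SS a gap wider than the spread within either cohort lay between them. The log2 change was 0.19 ± 0.03 (SE) over all groups (edgeR adjusted p = 0.00618), 0.27 in SR (edgeR adjusted p = 0.0341), 0.22 in SS and 0.03 in YSR. Whether these 3 values differ was not shown (edgeR adjusted p of the interaction = 0.444).

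Among the genes lower in XII, ENSRNOG00000038406 had the smallest p-value. It spans chr12:35970821-36398246 on the minus strand, with 18 exon blocks that sum to 2823 bases. Its lowest, median and highest levels were 18.1, 21.7 and 25.8 CPM in XII and 22.4, 26.7 and 33.6 CPM in XIII. The SR rats of XII were at 18.1, 21.3, 18.2 and 22.3 CPM and those of XIII at 28.2, 26.8 and 23.4 CPM. The SS rats of XII were at 23.0 and 19.3 CPM and those of XIII at 27.6, 33.6, 26.4 and 25.7 CPM. Both METH groups were lower in XII without overlap. The YSR rats of XII, at 21.8, 25.8 and 22.5 CPM, overlapped those of XIII, at 22.4 and 26.7 CPM. The log2 change was -0.31 ± 0.06 (SE), or 1.24-fold (edgeR adjusted p = 0.0216), with -0.39 in SR, -0.42 in SS and -0.07 in YSR.

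ENSRNOG00000040242, on chr1:5448958-5571512 on the plus strand with 4 exon blocks summing to 1143 bases, was at 4.94, 5.70 and 6.99 CPM (lowest, median and highest) in XII and at 5.78, 7.45 and 9.02 CPM in XIII. The SS rats of XII were at 5.04 and 5.48 CPM and those of XIII at 8.32, 9.02, 8.14 and 8.66 CPM, with the largest log2 change within SS among the 4 named genes. The SR rats of XII were at 4.94, 6.99, 5.72 and 6.0 CPM and overlapped those of XIII, at 7.48, 6.81 and 8.51 CPM, by 1 rat. In YSR the XII rats were at 5.70, 6.92 and 6.76 CPM and the XIII rats at 6.29 and 6.91 CPM, with no visible separation. The log2 change was -0.35 ± 0.07 (SE) over all groups (edgeR adjusted p = 0.0216), -0.36 in SR, -0.70 in SS (edgeR adjusted p = 0.0205) and -0.03 in YSR.

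Leaving out 1 library in turn changed no direction of the 4 genes. The adjusted p-value of both higher genes stayed under the threshold in all 30 of these fits, with 0.0355 as its highest value. That of ENSRNOG00000038406 went above it in 2 fits and that of ENSRNOG00000040242 in 3, with highest values of 0.0607 and 0.0654. Without the group CT, SR or SS as a whole, all 4 lost the threshold, with adjusted p-values between 0.0616 and 0.298 at changes of the same direction.

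**Figure D1:**
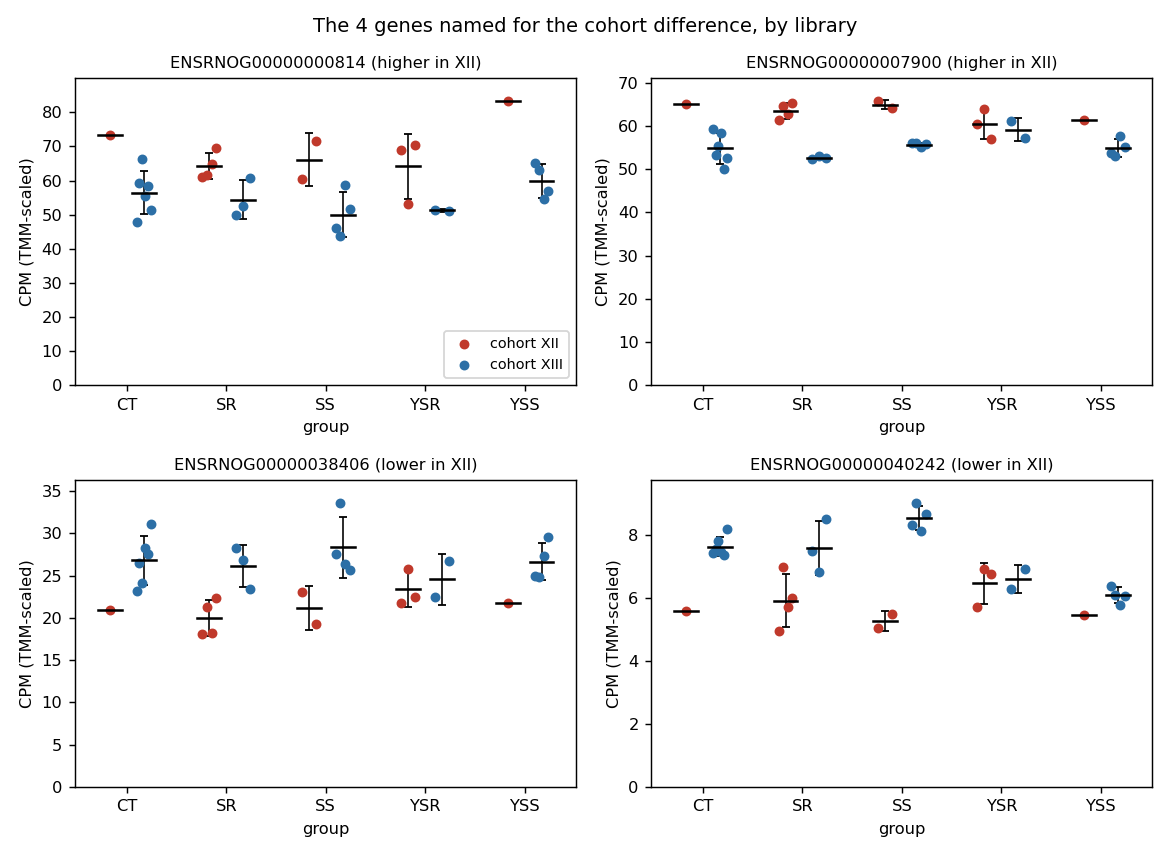
Level (CPM after TMM scaling, linear axis from 0) of the 4 named genes in each library, by group and cohort. Points are rats, bars are cohort means within a group, and whiskers are the SD where a cohort has at least 2 rats; in SR and SS the means of XII and XIII stand apart in each panel, while in YSR 3 of the 4 genes have means of XII and XIII that lie close together.

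The 21 lower genes and the 59 higher genes differed in structure. The lower genes had a median summed exon length of 3933 bases (quartiles 3071 and 5042), against 2030 bases (quartiles 1600 and 3190) in the higher genes and 2227 bases (quartiles 1381 and 3491) over all genes tested. The stretch of chromosome from the first to the last exon had a median of 97460 bases in the lower genes, 17997 in the higher genes and 18803 over all genes tested. The lower genes also had more exon blocks, with a median of 18, against 8 in the higher genes and 8 over all. Levels per length went the other way. The higher genes had a median of 39.1 CPM per kilobase (quartiles 16.7 and 84.7), the lower genes 8.57 (quartiles 5.75 and 15.8) and all genes tested 7.88 (quartiles 1.92 and 21.6). By these medians the higher genes were of ordinary length and had high levels per length, and the lower genes were long and of ordinary level per length. Small changes pass the threshold more readily in genes with many counts, and both length and level raise the counts. No comparison with genes of matched counts was made. Of the higher genes 9 (15.3%) and of the lower genes 5 (23.8%) overlap another gene in position, against 22.1% of all genes tested, and the use of strand in counting is not given in the sources used here.

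The 80 genes lay on 21 chromosomes. Chromosome 7 held 12 of them among 1050 genes tested (1.14%) and chromosome 20 held 8 among 498 (1.61%), all 8 of which were higher in XII, against 0.477% over all. Chromosome 1, with 2103 genes tested, held 7 (0.333%). Only 3 of the 12 on chromosome 7 and none of the 8 on chromosome 20 had a called gene within 1 Mb. Whether these genes gather over wider stretches was not tested. In all, 6 pairs of the 80 genes lay within 1 Mb of each other, and in 3 of these pairs the genes changed in opposite directions. The X chromosome held 1 of the 80 genes and the mitochondrial genome and the Y chromosome none.

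The cohort difference was then read within each group that holds at least 2 rats of each cohort. Within SR, 40 genes (0.239%) differed at an adjusted p-value under 0.05, 26 higher and 14 lower in XII, and 2359 (14.1%) at an unadjusted p-value under 0.05. Within SS, 103 genes (0.614%) differed, 68 higher and 35 lower in XII, and 2703 (16.1%) at the unadjusted p-value. Within YSR, 0 genes (0%) differed at the adjusted p-value in edgeR, with 0.831 as the smallest adjusted p, and 687 (4.1%) did at the unadjusted p-value; DESeq2 called 1 gene in YSR. These counts also depended on single libraries. That of SR was 0 without XIII-L09 or XIII-R07 and 206 without XIII-R09, and that of SS was 0 without XIII-L05 or XIII-L07 and 327 without XIII-R03. With the libraries of 1 group alone in the fit, 0 genes were called within SR (1923 at an unadjusted p-value under 0.05) and 0 within SS (2126).

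A test of the difference between the groups gave 0 genes (0%) whose cohort change varied between SR, SS and YSR in edgeR, with 1678 at an unadjusted p-value under 0.05 and 0.295 as the smallest adjusted p. DESeq2 called 7. The lack of calls in YSR beside those in SR and SS is therefore not shown to be a difference between the groups for any gene in edgeR.

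No gene was called both within SR and within SS. The lists held 0.239% and 0.614% of the genes tested and depended on single libraries. The lack of shared genes therefore does not show that the groups differ. Of the 40 genes of SR, 29 had the same direction in SS and 7 of these had an unadjusted p-value under 0.05 there. Of the 103 genes of SS, 80 had the same direction in SR and 25 of these had an unadjusted p-value under 0.05 there. Over all genes tested, in either direction, 16.1% had such a p-value in SS and 14.1% in SR. Over all genes tested, 56.6% had the same direction in SR and SS, 56.2% in SR and YSR and 46.8% in SS and YSR. In YSR, 30 of the 40 and 44 of the 103 had the direction that they had in SR or SS, with median log2 changes along that direction of 0.08 and -0.01. The 40 genes had a median size of 1.36-fold within SR and the 103 genes one of 1.33-fold within SS. Each list was chosen by its own contrast, which rests on fewer rats, so that larger changes were needed to pass. These sizes are therefore not comparable with those of the 80 genes. The 80 genes had median absolute log2 changes of 0.23 in SR, 0.28 in SS and 0.11 in YSR. In both lists the lower genes were also the longer ones by median. The libraries of SR and SS had entered the fit of the 80 genes, so this is no separate observation. In SR the lower genes had a median length of 2936 bases and the higher genes one of 2080, and in SS the medians were 3614 and 1778 bases.

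The largest of the differences within SR belonged to ENSRNOG00000026953, on chr2:219258347-219262901, named here after its values were seen, as are the other genes named for SR and SS. It was at 6.69, 14.5, 18.4 and 10 CPM in the SR rats of XII and at 56.7, 38.2 and 34.7 CPM in those of XIII, so that the cohorts were far apart. The log2 change was -1.80 ± 0.28 (SE), or 3.48-fold (edgeR adjusted p = 0.00592). Its levels were not higher in XIII elsewhere by as much. The SS rats were at 15.7 and 10.3 CPM in XII and at 20.8, 15.7, 19.9 and 16.6 CPM in XIII, and the YSR rats at 27.1, 14.8 and 15.2 CPM in XII and 10.2 and 19.6 CPM in XIII. The 3 SR rats of XIII had the highest levels of all 30 libraries for this gene.

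ENSRNOG00000021056, on chr1:101805531-101809544, had the smallest p-value among the genes higher in XII within SR. The SR rats of XII were at 23.2, 22.1, 24.8 and 21.6 CPM and those of XIII at 14.6, 13.6 and 17.4 CPM (log2 change 0.59 ± 0.09 (SE), edgeR adjusted p = 0.00592). The 4 SR rats of XII were above all the other 26 libraries, whose highest value was 18.8 CPM. In SS the XII rats, at 15.7 and 18.2 CPM, lay among the XIII rats, at 15.9, 17.5, 18 and 16.8 CPM, and the log2 change was -0.01.

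ENSRNOG00000050655 on chr20:28920616-28971966, which overlaps another gene, was at 73.6, 86.5, 83.4 and 81.9 CPM in the SR rats of XII and at 61.4, 57.3 and 67.4 CPM in those of XIII (log2 change 0.39). ENSRNOG00000008934 on chr7:98605722-98709649, which also overlaps another gene, was at 14.9, 17.9, 15.5 and 16.9 CPM in the SR rats of XII and at 22.5, 24.7 and 22.7 CPM in those of XIII (log2 change -0.51). Neither gene overlapped between the cohorts in SR, and their log2 changes in SS were 0.05 and 0.04.

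Within SS, the gene with the smallest p-value was ENSRNOG00000010872 on chr6:136142956-136145837, with a level of 729 CPM per kilobase, the highest per length among the 59 higher genes. The SS rats of XII were at 1270 and 1196 CPM and those of XIII at 993, 958, 989 and 1012 CPM (log2 change 0.32 ± 0.05 (SE), edgeR adjusted p = 0.0205). In SR the XII rats were at 1071, 1103, 1120 and 1061 CPM and the XIII rats at 984, 1017 and 1097 CPM, a smaller step with overlap. Over all groups its log2 change was 0.13 (edgeR adjusted p = 0.0498), and this p-value went above the threshold in 26 of the 30 fits that left out 1 library, with 0.133 as its highest value. ENSRNOG00000020843 on chr1:101448346-101449829, which overlaps another gene, was at 245 and 218 CPM in the SS rats of XII and at 186, 160, 171 and 182 CPM in those of XIII. ENSRNOG00000028261 on chr1:31870899-31890778 was lower in XII, at 76.4 and 81.8 CPM against 99.6, 113, 97.9 and 94.0 CPM in XIII. The changes of the 3 genes in YSR were 0.01, 0.03 and 0.07 on the log2 scale.

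The 80 genes were chosen in a fit that included every group, so that their direction within any of them, the single XII rats of CT and YSS included, is a description and no test. All 80 had the direction of the overall change in SR, all 80 in SS and 79 in YSR, against 74.6%, 72.9% and 61.1% of all genes tested. The same direction in all 3 groups was found for 79 of the 80 and for 29.8% of all genes tested. The median log2 changes of the 59 higher genes were 0.19 in SR, 0.26 in SS and 0.11 in YSR, and those of the 21 lower genes were -0.34, -0.33 and -0.10. An unadjusted p-value under 0.05 in the same direction was found for 63 of the 80 in SR, 69 in SS and 13 in YSR. At this p-value 6 of the 80 differed in all 3 groups, 55 in 2, 17 in 1 and 2 in none. The libraries of XII and XIII did not overlap, in the direction of the overall change, for 46 of the 80 in SR, 66 in SS and 31 in YSR. Over all genes tested, the libraries did not overlap, in either direction, for 11.3% in SR, 23.1% in SS and 18.9% in YSR. The single XII rat of CT lay on the called side of the XIII mean for 77 of the 80 genes, against 64.0% of all genes tested, and that of YSS for 76, against 61.9%. It lay outside the XIII range on that side for 57 of the 80 in CT, against 23.0% of all genes tested, and for 54 in YSS, against 27.5%.

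**Figure D2:**
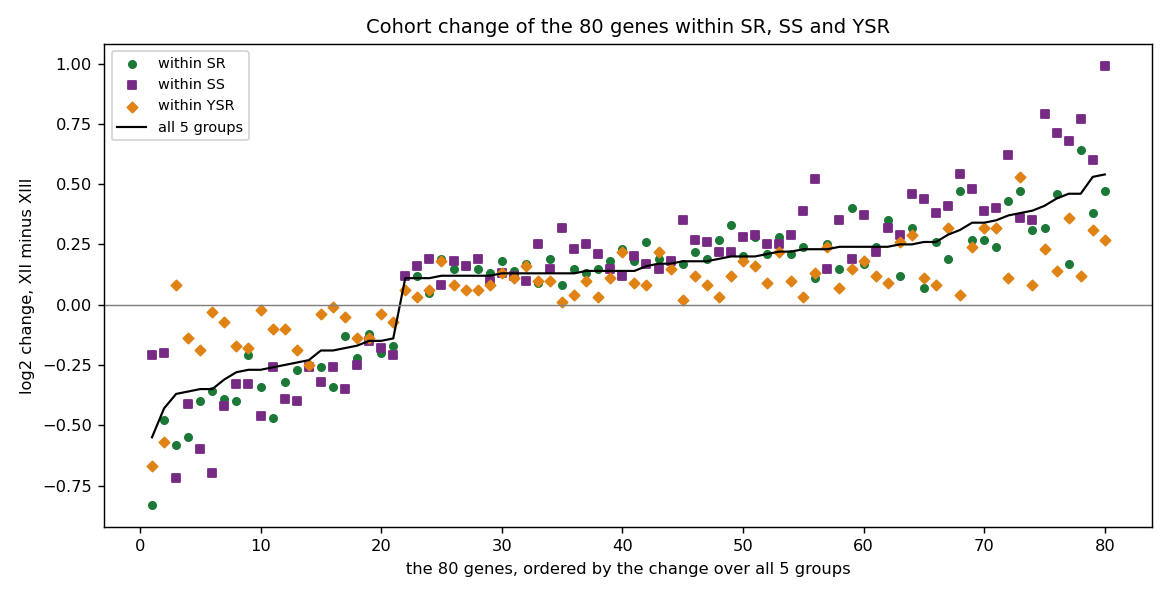
Fitted log2 change (XII minus XIII) of each of the 80 genes within SR, SS and YSR, with the genes ordered by their change over all 5 groups (black line). The changes of SR and SS scatter around or beyond the line on its side of 0, with medians of 0.19 and 0.26 for the higher genes, and those of YSR lie nearer to 0, with a median of 0.11.

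A reading that does not share libraries was made by taking genes from the other groups and looking at them in the group left out. In the fit without SR, 1802 genes passed at p under 0.05 before adjustment, and 72.1% of these changed in the same direction within SR, against 58.1% of all genes; 15.4% also had an unadjusted p-value under 0.05 within SR, against 7.94% of all genes. In the fit without SS the 1783 genes had the same direction within SS in 71.7% of cases, against 57.7% of all genes, and 18.8% also passed there, against 9.13%. In the fit without YSR the 2927 genes had the same direction within YSR in 53.1% of cases, against 50.4% of all genes, and 2.29% also passed there, against 2.39%. These genes were picked at an unadjusted p-value. Genes are not independent replicates, and no test is given for these shares. At the adjusted p-value the fits without SR and without SS called 0 genes in edgeR, as did the fit without CT (2447 at an unadjusted p-value under 0.05). That without YSR called 251 genes, 135 higher and 116 lower in XII. Of these 251, 158 (62.9%) had the same direction in YSR, against 50.4% of all genes, with a median log2 change of 0.02 along it, and 8 had an unadjusted p-value under 0.05 there.

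The change with gene length was also read in each group. Over the quintile of genes with the longest exon sums (3906 to 29464 bases), the median log2 change between the cohorts was -0.03 in SR, -0.08 in SS and 0.02 in YSR. Over the second quintile (1201 to 1875 bases) the medians were 0.02, 0.05 and -0.01. Between these quintiles the medians fell in SR and SS and rose slightly in YSR. Whether the groups differ in this was not tested. Of the 21 lower genes, 11 belonged to the longest quintile and 8 to the one before it, and 7 and 18 of the 59 higher genes did.

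The slope of each library's log2 CPM, relative to the mean of all libraries, against the log10 of exon length was -0.199 in SR XII-R05 and -0.131 in SS XII-L03, the lowest of the 30. It lay between -0.0451 and 0.051 in the other 9 rats of XII and between -0.0896 and 0.128 in the rats of XIII. The difference of the cohorts in this slope was -0.0477 and did not pass an exact permutation test with labels exchanged within groups (p = 0.112, adjusted p = 0.176 over 11 measures per library). The slope against the log10 of the stretch from first to last exon differed by -0.0319 (exact permutation p = 0.0388, adjusted p = 0.0855), with -0.0501 in SR, -0.0693 in SS and 0.00253 in YSR. The slope against the log10 of the number of exon blocks differed by -0.0295 (exact permutation p = 0.0836, adjusted p = 0.153), with -0.0224 in SR, -0.0862 in SS and 0.0125 in YSR. The means of all 3 slopes were lower in XII in SR and SS, and no difference over all groups passed the threshold after adjustment. Apart from XII-R05, the exon length slopes of the SR rats of XII lay between -0.026 and 0.051. Those of the SR rats of XIII lay between -0.0536 and 0.115. Within groups, the exact permutation p-values for the exon length slope were 0.514 in SR, 0.267 in SS and 0.8 in YSR. Without SR XII-R05 the number of cohort genes was 28 and without SS XII-L03 it was 17. It fell as far, to 18, without SS XII-R03 and without SR XIII-L09, whose slopes against exon length were -0.037 and 0.115. With each library's trend with length removed, 53 genes were called, of which 49 were among the 80. The count within SS then fell to 48 and that within SR rose to 72.

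**Figure D3:**
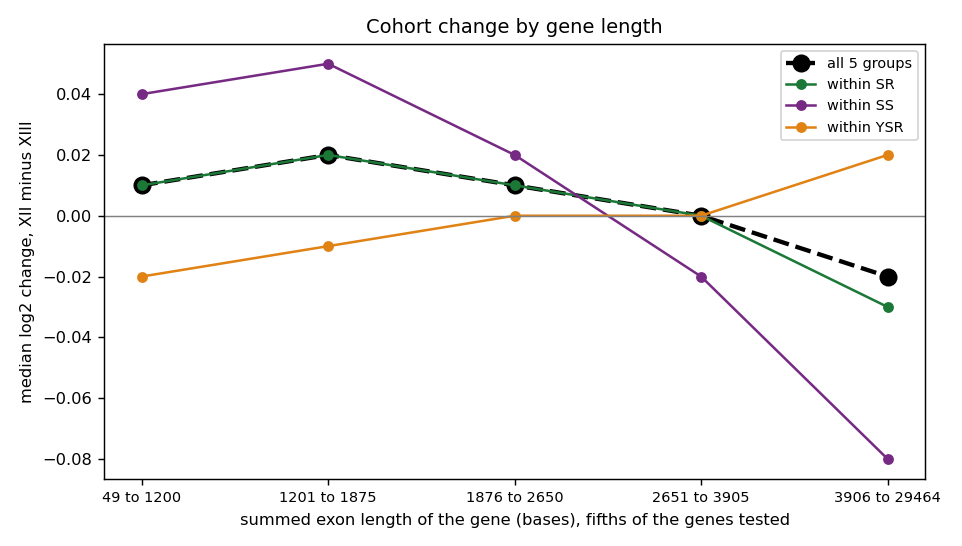
Median fitted log2 change (XII minus XIII) of the genes tested, in quintiles by summed exon length in bases, over all 5 groups (dashed) and within SR, SS and YSR. In the longest quintile the medians are -0.03 in SR, -0.08 in SS and 0.02 in YSR.

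Mitochondrial transcripts took a larger share of the counts in XII. The share had its lowest value at 7.06%, its median at 8.16% and its highest value at 9.69% in the rats of XII, and it was 6.40%, 7.67% and 8.65% in those of XIII. Within SR it was 8.28% ± 1.11 (SD, n = 4) in XII and 7.35% ± 0.70 (SD, n = 3) in XIII. It was 8.23% ± 0.967 (SD, n = 2) and 7.58% ± 0.682 (SD, n = 4) within SS, and 8.29% ± 0.722 (SD, n = 3) and 7.60% ± 0.622 (SD, n = 2) within YSR. The ranges of XII and XIII overlapped in all 3 groups, and the means were higher in XII in each, YSR included. With labels exchanged within groups, the share was 0.661 percentage points higher in XII (exact permutation p = 0.0389, adjusted p = 0.0855 over 11 measures), which did not pass the threshold after adjustment.

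By gene, 25 of the 30 mitochondrial genes tested had a change above 0, against 51.2% of all genes tested, with a median log2 change of 0.11. At an unadjusted p-value under 0.05 there were 11 of the 30, all of them higher in XII, against 15.8% of all genes tested in either direction. None was called (smallest edgeR adjusted p = 0.0977). The 13 mitochondrial genes of 100 bases or longer, which took 99.7% of the mitochondrial counts, all lay above 0, between 0.05 and 0.17. The 17 shorter genes took 0.305%, and 12 of them lay above 0. All of these genes lie on the same genome and their counts make up the mitochondrial share. Their counts above 0 therefore restate the difference in share and are no separate observations. Within the groups 27 of the 30 genes were above 0 in SR, 23 in SS and 28 in YSR, with median log2 changes of 0.17, 0.11 and 0.16. Over all genes tested, 50.6%, 49.6% and 50.2% were above 0 in these groups. The median change of the mitochondrial genes in YSR was thus close to that in SR. Whether it differs between the groups was not tested. Library preparation with oligo(dT) beads captures mitochondrial RNA by its poly(A) tails, and no measure of RNA integrity per library was used here.

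The share of nuclear counts on the X chromosome was lower in XII. Its lowest, median and highest values were 3.21%, 3.32% and 3.38% in XII and 3.28%, 3.40% and 3.46% in XIII. Within SR it was 3.26% ± 0.0567 (SD, n = 4) in XII and 3.39% ± 0.101 (SD, n = 3) in XIII, with overlap. Within SS the 2 rats of XII, at 3.32% and 3.31%, were below all 4 of XIII, which lay between 3.36% and 3.42%. Within YSR the share was 3.34% ± 0.0377 (SD, n = 3) and 3.37% ± 0.0215 (SD, n = 2), with overlap. The share differed by -0.0685 percentage points over all groups (exact permutation p = 0.0064, adjusted p = 0.0352 over 11 measures), and it stayed lower in XII with each of the 30 libraries left out. By gene, 349 of the 580 X-linked genes tested had a change below 0 and 231 one above 0, with a median log2 change of -0.02. Over all genes tested, 51.2% were above 0. This shift was not particular to the X chromosome, since chromosome 11 had the same median, with 173 of its 412 genes above 0. The medians of the autosomes ran from -0.02 to 0.02, and their shares of counts were not measured. The X-linked median was -0.06 in SR, -0.04 in SS and 0.00 in YSR. Of the 10 Y-linked genes tested, 9 were below 0. The Y-linked counts per 1000000 nuclear counts had medians of 244 in XII and 250 in XIII, and their difference within groups, -10.8, did not pass the exact permutation test (p = 0.212, adjusted p = 0.259 over 11 measures). This depended on CT: the difference was -13.2 without CT XIII-L11, which was at 151 (exact permutation p = 0.0108), and -14.9 without CT XII-R11 (exact permutation p = 0.0139). The difference of the means was -23.3 in SR, -26.3 in SS and 5.21 in YSR.

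**Figure D4:**
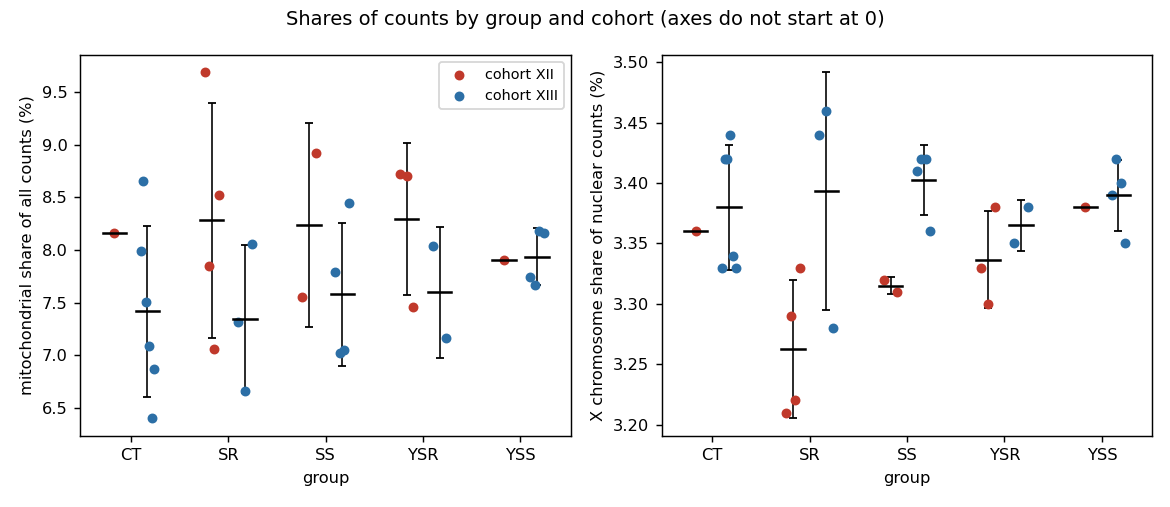
Mitochondrial share of all counts and X chromosome share of nuclear counts (both in %, axes not from 0) in each library, by group and cohort, with cohort means (bars) and SD (whiskers, where there are at least 2 rats). The mitochondrial mean is higher in XII in CT, SR, SS and YSR and about equal in YSS, with overlapping rats. The mean X chromosome share is lower in XII in SR, SS and YSR, with overlapping rats in SR and YSR but not in SS.

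Of the other measures, the scaling factor of TMM was lower in XII, with medians of 0.991 and 1.01 (exact permutation p = 0.00484, adjusted p = 0.0352). The 10 most counted genes of a library took a median of 8.32% of the counts in XII and 7.89% in XIII (exact permutation p = 0.0178, adjusted p = 0.0652). This share followed the mitochondrial share and is no separate difference. The shares were 9.85% and 9.69% in SR XII-L05, the highest of both, and 6.64% and 6.4% in CT XIII-R11, the lowest of both. Total counts, between 14584340 and 19997820 over the 30 libraries, had medians of 17110757 in XII and 17407309 in XIII (exact permutation, adjusted p = 0.8). Genes with at least 3 counts had medians of 17295 and 17432 (exact permutation, adjusted p = 0.206). At this depth 3 counts correspond to a level far under that of any gene named. The letter L or R that follows the numeral in the titles was L for 3 of the 11 libraries of XII and 9 of the 19 of XIII. With this letter in the model 42 genes were called, 41 of them among the 80. The part of mitochondrial share, length trend, X chromosome share and letter in the results on the 80 genes was not tested beyond these fits.

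The cohorts can also bear on the comparisons between the groups, since the share of XII rats differs between them. Of the 8 comparisons of the study, SR vs. CT sets 4 of 7 XII rats against 1 of 7. Without the cohort in the model, SR vs. CT had 1719 genes past p under 0.05 before adjustment, and with it 1129, of which 945 were in both. In YSR vs. CT, with 3 of 5 XII rats against 1 of 7, the number went from 1245 to 957. The other comparisons with CT changed less. SS vs. CT went from 845 to 785 genes and YSS vs. CT, with 1 of 5 XII rats against 1 of 7, from 872 to 899.

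Among the comparisons without CT, SR vs. SS went from 1224 to 1119 genes and SR vs. YSR, whose groups hold similar shares of XII, from 1323 to 1419. SS vs. YSS went from 734 to 850 and YSR vs. YSS from 558 to 643. The number fell in 4 of the 8 comparisons and rose in the other 4. A cohort term can also lower the precision of a comparison whose groups hold unlike shares of XII. These counts alone therefore do not measure an effect of the cohort. The comparisons with the same group share its libraries and are not independent of each other.

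For the 80 genes themselves, 16 (20%) had an unadjusted p-value under 0.05 in SR vs. CT without the cohort in the model, against 10.3% of all genes tested, and 8 with it, against 6.73%. In SR vs. CT their median log2 change along the cohort's direction was 0.07 without the cohort in the model and 0.00 with it. In YSR vs. YSS none of the 80 passed without the cohort in the model, against 3.33% of all genes, and 12 with it, against 3.83%. The median change along the cohort's direction was then 0.00 without it and -0.07 with it. These values were chosen by the cohort contrast and are given as a description.

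**Figure D5:**
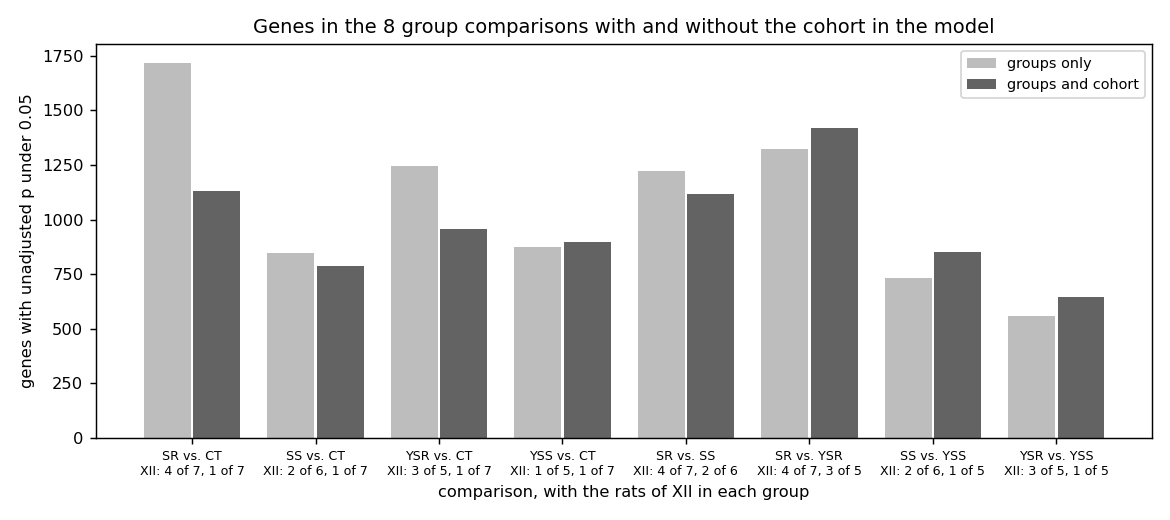
Number of genes with an unadjusted p-value under 0.05 (of 16768 tested) in each of the 8 group comparisons, with the groups alone (light) and with the groups and the cohort (dark) in the model; the line under each name gives the rats of XII of all rats in the first and the second group. The widest step is that of SR vs. CT, from 1719 to 1129 genes.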

How the data were processed

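The authors demultiplexed the reads with bcl2fastq 2.17, trimmed them with Trimmomatic 0.36, and, per the submitters' processing notes, aligned them with STAR 2.5.2b and counted them with featureCounts of Subread 1.5.2. They deposited raw counts per gene, 1 table per rat, with no normalization. The genome build and the use of strand are not given in the sources used here. Group and cohort were taken from the titles. Replicates are rats, numbered in the order of the records, and the numbers pair nothing.

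From the counts, edgeR 4.0.16 (R 4.3.3) was run on all 30 libraries with TMM normalization. Its low-count filter, applied over the 10 combinations of group and cohort, kept 16768 of 32552 genes. The cohort was tested beside the 5 groups by the quasi-likelihood test. Within SR, SS and YSR, and for the variation between them, 1 mean per combination was fitted. The p-values were adjusted by the Benjamini-Hochberg method over all genes tested at a threshold of 0.05. CPM are TMM-scaled. Single measures were compared by exact two-sided permutation tests over all 183750 arrangements of the cohort labels within groups, adjusted over 11 measures. These intervals and tests cover the spread between these rats, and a count floor of 3 covers counting error only. The code was tested on simulated data.

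The members and lists were chosen with earlier results of these data known. Genes were named by the smallest p-values among the called genes of each direction, with at most 2 per direction in each comparison, since the files do not pair identifiers with names. The 25 gene lists fixed by symbol could not be applied, and no sequence is printed. Alternatives were median-ratio size factors, DESeq2 1.42.0, other low-count filters (that over the 5 groups was chosen after seeing the data), the letter L or R, removal of the trend with length (lowess, span 0.3), other sets of groups, and each library left out.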

Additional observations from a re-analysis of the deposited data

Results flagged for a closer look

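Of 88 sets of values from cohorts with 4 to 10 rats within a group, 3 held a library far from the others, and about 1 in 20, or 4.4, would by chance. CT XIII-L11 had 151 Y-linked counts per 1000000 nuclear counts, against 245 to 255 in the other 5 CT rats of XIII. YSS XIII-L04 had a slope of log2 CPM against the log10 of exon blocks of -0.0198, against 0.0156 to 0.0222 in the other 3. ENSRNOG00000026953, named for its difference within SR, was at 25 CPM in CT XIII-R05, against 11.3 to 14.2 CPM in the other 5.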

How the results depend on the processing

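The direction of the 4 named cohort genes was the same under every alternative run for them. The number of genes that differ between the cohorts (80) was 48 with median-ratio size factors, 43 with all genes of at least 1 count, 126 with at least 10 counts in every library, 42 with the letter L or R, 53 with the length trend removed, 467 with no group term and 321 in DESeq2. It was 0 with only SR, SS and YSR (2425 at an unadjusted p-value under 0.05), 0 without CT, 0 without SR, 0 without SS, 251 without YSR and 44 without YSS. At an unadjusted p-value under 0.05 with at least 1.7-fold it was 51, and with the low-count filter over the 5 groups, chosen after seeing the data, it was 76. Within SR (40) the number was 74 with all genes of at least 1 count, 76 with at least 10 counts in every library, 72 with the length trend removed, 0 with only that group's libraries and 211 in DESeq2. Within SS (103) it was 48 with the length trend removed, 0 with only that group's libraries and 346 in DESeq2. Within YSR DESeq2 called 1 gene, and 7 for the variation between SR, SS and YSR, where edgeR called 0. The fits with only SR, SS and YSR or a single group have fewer samples. The cause of the other moves was not tested. No paired analysis was possible because the replicate numbers only name the rats and the sources used here name no METH-taking partner for any single yoked rat. All rats entered the fits as independent.

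With 1 library left out, the cohort count ran from 17 to 248. Called without SS XII-L03 were 17, without SS XII-R03 and SR XIII-L09 18 each, without SR XIII-R07 and YSR XII-R10 20 each, without SS XIII-L03 26, without SR XII-R05 28, without SR XII-L05 32, without CT XII-R11, SR XII-L07 and SS XIII-L07 33 each, without YSS XIII-R04 35, without YSS XIII-L06 38, without SS XIII-L05 42, without CT XIII-R06, CT XIII-R11 and CT XIII-R12 45 each, without CT XIII-L12 and YSS XIII-L02 48 each, without CT XIII-L11 50, without SS XIII-R03 108, without YSS XIII-L04 119, without YSR XII-R06 134, without SR XIII-R09 214 and without YSR XIII-R08 248. The count within SR ran from 0 (without XIII-L09 or XIII-R07) to 206 (without XIII-R09), with 4 without XII-L07, 6 without XII-L05, 8 without XII-R05, 74 without XII-R07, 81 without SS XIII-L05, 63 without SS XIII-R03 and 64 without CT XIII-R05. The count within SS ran from 0 (without XIII-L05 or XIII-L07) to 327 (without XIII-R03), with 2 without XII-L03, 187 without XII-R03 and 42 without XIII-L03, and it lay between 20 (without YSS XIII-L02) and 66 (without YSR XII-R06) without CT XIII-L11, XIII-R06, XIII-R11 or XIII-R12, SR XII-L05, XII-L07, XII-R07 or XIII-R07, YSR XII-R02, XIII-R08 or XIII-R10, and YSS XIII-L04, XIII-L06 or XIII-R04. The count within YSR from 0 to 1 and that of the variation from 0 to 1. The mitochondrial difference ran from 0.527 to 0.771 percentage points and lost an unadjusted exact permutation p-value under 0.05 in 11 of the 30 fits, with p up to 0.0923. The X chromosome difference ran from -0.0782 to -0.0557 and kept it in all 30. The Y-linked difference ran from -14.9 to -7.65 per 1000000 nuclear counts and passed at the unadjusted exact permutation p-value without CT XIII-L11 or CT XII-R11 and in none of the other 28 fits. The medians of the 25 gene lists were not run, since no identifier could be matched.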
